A study of Mus musculus with 12 samples.

Results

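The genes described here are 7 hormone-binding nuclear receptors, the corepressor Hr and the receptor of prolactin, as measured in hair follicle stem cells (HFSCs) of the mouse. They were chosen by name, namely Vdr, Hr, Rxra, Thra, Thrb, Nr3c1, Nr3c2, Esr1 and Prlr, and all 9 were found among the 17885 genes of a table of Eed iKO and control libraries and among the 21915 genes of a table of anagen and telogen libraries. HFSCs were sorted from back skin by their surface markers (CD34+, α6-integrin high, EpCAM+ and Sca1-), and RNA was sequenced in 12 libraries, 3 in each of 4 groups. Anagen HFSCs, from follicles that grow a hair, came from wild type mice of postnatal days 28 to 30, and telogen HFSCs, from resting follicles, from wild type mice of days 50 to 52. Control and Eed iKO HFSCs both came from mice of day 70, which the labels call wildtype and Eed -/-, and all mice were C57BL/6J. Eed iKO mice carry K15-CrePGR, a Cre that RU-486 switches on in cells with an active K15 promoter, and Eed fl/fl, floxed alleles of a core subunit of the Polycomb complex PRC2. Per the methods, RU-486 was put on the skin of Eed iKO mice daily for 7 days from day 50 (100 µl at 10 mg/ml), while control mice received ethanol. RU-486 is known as an antagonist of progesterone and glucocorticoid receptors, so the drug and the deletion cannot be told apart in this comparison. In the hair cycle comparison, age and hair cycle stage cannot be told apart.

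Nuclear receptors are transcription factors that a small ligand switches on: vitamin D for Vdr, thyroid hormone for Thra and Thrb, glucocorticoid for Nr3c1, mineralocorticoid (and glucocorticoid) for Nr3c2 and estrogen for Esr1. Rxra, the retinoid X receptor alpha, is the partner with which Vdr and the thyroid hormone receptors bind DNA, whereas steroid receptors mostly bind as pairs of their own kind. Hr (hairless) is a corepressor that binds Vdr and thyroid hormone receptors, and Prlr is no nuclear receptor but a cell surface cytokine receptor that signals through Jak2 and Stat5. In skin, loss of Vdr or Hr is known to block the regrowth of hair after the first coat, glucocorticoids, estrogen and prolactin are known to hold follicles at rest, and thyroid hormone is known to act on their growth.

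Many receptors of this class, the estrogen receptor among them, recognise a hexamer, AGGTCA or its reverse TGACCT, while glucocorticoid, mineralocorticoid, progesterone and androgen receptors recognise AGAACA or TGTTCT. RefSeq promoters (GRCm38.p6), 250 bases before to 50 after a start, were examined for 6 of the 9 genes, 11 promoters in all. Those of Hr, Thra and Nr3c1 were not examined, so nothing is said of their promoters. The promoters of Thrb are shown because Thrb was, among the members whose groups did not overlap in the hair cycle, the one higher in anagen, and that of Dio2, the enzyme that makes active thyroid hormone, because Dio2 rose in anagen. Each is printed 5′ to 3′ along its gene, with matches to these hexamers in capitals. The first promoter of Thrb lies at chr14:17660710-17661009 on the plus strand, the second at chr14:17981394-17981693 on the plus strand, and the promoter of Dio2 at chr12:90738989-90739288 on the minus strand.
Thrb, first promoter: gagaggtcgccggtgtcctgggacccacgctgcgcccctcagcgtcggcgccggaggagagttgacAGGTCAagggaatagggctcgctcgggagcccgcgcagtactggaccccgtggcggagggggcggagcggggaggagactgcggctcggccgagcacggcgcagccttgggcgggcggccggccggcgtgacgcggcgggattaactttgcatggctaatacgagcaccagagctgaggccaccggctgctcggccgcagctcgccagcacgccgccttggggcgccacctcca
Thrb, second promoter: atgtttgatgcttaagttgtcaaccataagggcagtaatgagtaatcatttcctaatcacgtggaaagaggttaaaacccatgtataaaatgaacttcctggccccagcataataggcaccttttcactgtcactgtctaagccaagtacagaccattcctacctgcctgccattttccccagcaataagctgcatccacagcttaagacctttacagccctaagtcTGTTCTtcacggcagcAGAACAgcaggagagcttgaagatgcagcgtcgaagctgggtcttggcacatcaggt
Dio2 promoter: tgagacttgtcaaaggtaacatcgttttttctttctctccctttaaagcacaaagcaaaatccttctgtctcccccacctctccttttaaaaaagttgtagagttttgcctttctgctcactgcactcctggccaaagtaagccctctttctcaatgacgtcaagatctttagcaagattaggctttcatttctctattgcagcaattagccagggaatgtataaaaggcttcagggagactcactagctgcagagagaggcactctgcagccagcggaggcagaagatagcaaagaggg
The first Thrb promoter held 1 copy of AGGTCA, 184 bases before the start, and 37 CpG dinucleotides. Of the 32851 promoters counted for comparison, 94.4% held fewer. The second held 4 CpG dinucleotides and no AGGTCA or TGACCT, but TGTTCT and AGAACA lay 23 and 7 bases before its start. The Dio2 promoter held none of these hexamers and 3 CpG dinucleotides. On either strand, AGGTCA was found in 16.26% of the promoters counted for comparison and AGAACA in 18.97%. Among the other members, the second promoter of Rxra (chr2:27709042-27709341) held both TGACCT and AGGTCA, and the second promoter of Prlr held 1 match to AGAACA or TGTTCT. These are matches of letters and were not tested for binding. The values below are summed over each gene and do not show which start was used.

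Values are normalized counts, that is, counts divided by a size factor of the library. Groups were tested with limma after taking log2(normalized count + 1), which makes changes of weakly expressed genes look smaller, and a gene was called where its p, adjusted over all genes tested by the method of Benjamini and Hochberg, was under 0.05. Libraries of the Eed iKO table held 33269583 to 57063586 reads, and 15008 genes were tested there. For the hair cycle libraries the depth is unknown, since their values (summing to 11370984 to 13186648 per library) could not be turned back into whole reads, and 13457 genes were tested. All 9 members were tested in both tables, and as each table was normalized on its own, levels are not compared between them. Krt15, a marker of the sorted cells, had normalized counts of 537242 to 707811 in the Eed iKO table. In the hair cycle table it had 142406 to 422433, while Tcf7l1, the lowest of the bulge markers there, had 157 to 301. Ly6a, the gene of the sorted-out marker Sca1, had 27.1 to 170 and 5.59 to 28.5 in the 2 tables. Krt10, a marker of differentiating epidermis, had 3429 to 45520 and 3348 to 11920. The sort marker Cd34 had 31535 to 47502 and 2955 to 9159. Telogen replicate 1 stood apart in Krt15, with 142406 against 350444 and 416765 in the other telogen libraries. Eed iKO replicate 3 stood apart in the proliferation marker Mki67, with 609 against 6125 and 6301 in the other libraries labelled Eed iKO and 639, 2543 and 928 in control. Normalized counts of the targeted gene Eed were 933, 1361 and 1001 in the libraries labelled Eed iKO and 1084, 1249 and 950 in control, overlapping, with a log2 fold change of -0.01 (limma adjusted p = 0.993), so those libraries are named by their label and directions rest on it. Libraries are bulk sorted cells, in which fewer cells of a type and less RNA per cell cannot be told apart.

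Per kilobase of exon, Vdr, Hr, Rxra, Nr3c1, Prlr and Thra formed the abundant members and Nr3c2, Thrb and Esr1 the scarce ones. In control HFSCs, the level of Vdr was 6599 ± 702 normalized counts per kb (SD, n = 3), higher than 98.9% of genes tested. Hr followed with 5064 ± 943 and Rxra with 4027 ± 547, and these neighbours overlapped between libraries. Nr3c1 (2665 ± 586), Prlr (1850 ± 207) and Thra (1585 ± 97.2) came next, where Prlr and Thra overlapped. Nr3c2 (176 ± 27.0) and Thrb (111 ± 3.89) lay far below and did not overlap, and Esr1, at 3.04 ± 0.917, was higher than 2.49% of genes tested. The order was the same in the libraries labelled Eed iKO. Prlr and Thra changed places when the length of the longest coding transcript was used in place of all exons.

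In the hair cycle libraries the order was led by the glucocorticoid receptor. Nr3c1 stood at 904 ± 39.9 normalized counts per kb in telogen (SD, n = 3) and 540 ± 47.6 in anagen, and Vdr at 466 ± 48.5 and 495 ± 31.8. The libraries of Nr3c1 and Vdr overlapped in anagen and were apart in telogen. In telogen, Prlr (453 ± 7.40) overlapped Vdr, and it was followed by Rxra (342 ± 6.85), Hr (286 ± 42.0) and Thra (222 ± 71.4), of which Hr and Thra overlapped. Thrb (29.2 ± 9.11), Nr3c2 (18.1 ± 7.60) and Esr1 (1.37 ± 1.33) were the scarcest, and Thrb and Nr3c2 overlapped. In anagen, Rxra and Prlr changed places. Prlr overlapped Rxra and Hr there, and Thra (80.1 ± 20.0) overlapped Thrb (58.1 ± 14.7). By the longest coding transcript, Prlr stood above Vdr and Thra above Rxra and Hr in telogen, and Prlr above Rxra in anagen.

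**Figure D1:**
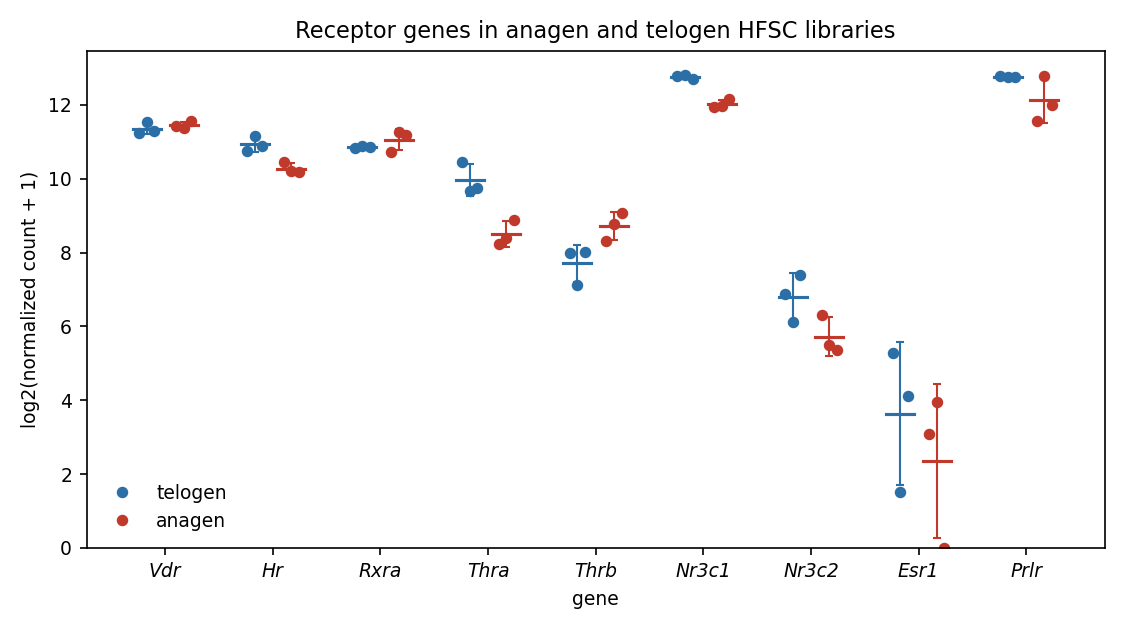
Normalized counts of the 9 members in the anagen and telogen libraries, as log2(normalized count + 1) on the vertical axis. Points are libraries (3 per group), bars the mean and error bars the SD, with telogen in blue and anagen in red. The groups are apart for Hr, Thra, Thrb and Nr3c1 and overlap for the other members.

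The hair cycle comparison asks how receptor mRNA differs between growing and resting follicles. Thra, the thyroid hormone receptor alpha, and Nr3c1, the glucocorticoid receptor, were lower in anagen, 2 of 9 members called against 11.6% of all genes tested (4.35% lower and 7.22% higher). Among the members, 6 of 9 had an unadjusted p under 0.05, against 27.3% of genes. Anagen and telogen libraries were fully apart for 4 members, 3 lower and 1 higher in anagen, against 33.3% of genes. No member passed the thresholds of the methods, a log2 fold change of more than 2 with an unadjusted p under 0.05, which 5.1% of genes passed. The median log2 fold change (anagen over telogen) was -0.66 over the members and 0.01 over all genes tested.

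Of the thyroid hormone receptors, Thra fell in anagen, and Thrb had higher values in anagen without being called. Thra (ENSMUSG00000058756.13, GRCm38 chromosome 11 from 98740638 to 98769006, plus strand) had normalized counts of 297, 338 and 473 in anagen replicates 1, 2 and 3 and of 1404, 815 and 855 in telogen replicates 1, 2 and 3. All anagen libraries lay below all telogen libraries, and telogen replicate 1 was the highest. The log2 fold change was -1.45 (SE 0.28; limma adjusted p = 0.0086), a level 2.74 times lower in anagen. Without telogen replicate 1 it was -1.20 (adjusted p = 0.016), and without anagen replicate 1 it was -1.31 with an adjusted p of 0.051, just past the threshold. Leaving out anagen replicate 1 also lowered the calls over all genes from 1556 to 597.

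Thra and its neighbour Nr1d1, a nuclear receptor of the circadian clock that represses transcription, are transcribed towards each other. They share 263 bases of exon, 5.7% of the exon bases of Thra, on opposite strands. Nr1d1 had 459, 428 and 421 in anagen and 1389, 1736 and 1167 in telogen, and it fell by 1.69 on the log2 scale (SE 0.22; limma adjusted p = 0.000895). Whether the counting used strand is not given in the sources used here, so reads of the shared bases may have been assigned to either gene. Thra also makes transcripts for a form that does not bind hormone, which a value summed over the gene does not tell from the receptor.

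Thrb (ENSMUSG00000021779.17, chromosome 14 from 17660261 to 18038090, plus strand), the beta receptor, had 320, 434 and 537 in anagen and 251, 139 and 260 in telogen. The groups did not overlap, with every anagen library above every telogen library, but the log2 fold change of 1.01 (SE 0.33) had an unadjusted p of 0.011 and an adjusted p of 0.076 from limma and was not called. The ratio of Thrb to Thra within a library does not depend on library scaling. It was 1.08, 1.29 and 1.13 in anagen and 0.179, 0.171 and 0.304 in telogen, so that Thrb and Thra had like counts in anagen while Thra exceeded Thrb in every telogen library. These counts are not divided by length. Per kb of exon, the anagen mean was 80.1 for Thra and 58.1 for Thrb, and by the longest coding transcript 151 and 69.4. The ratio was 5.52-fold higher in anagen (2.46 on the log2 scale), with a two-sided exact permutation p of 0.1, the smallest that 3 libraries against 3 can give. Left-out libraries moved the log2 difference between 2.31 and 2.73. Over the 6 ratio comparisons made in both tables, the Benjamini-Hochberg adjusted p of this exact permutation test was 0.3.

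**Figure D2:**
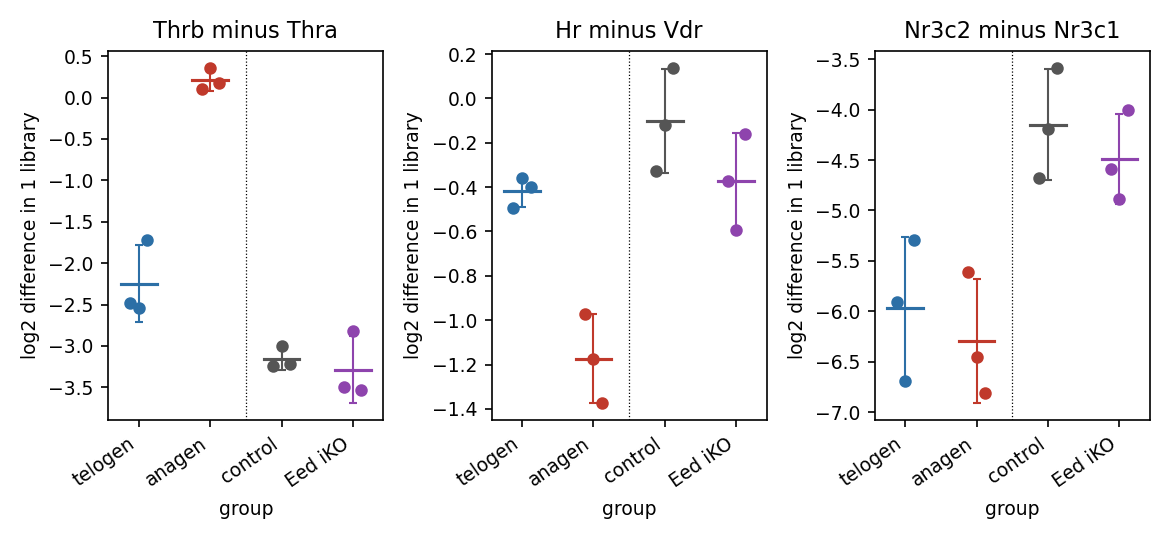
Log2 difference between 2 members within each library, for Thrb and Thra, Hr and Vdr, and Nr3c2 and Nr3c1. Points are libraries (3 per group), bars the mean and error bars the SD, and the dotted line parts the 2 tables, which were normalized separately. Anagen lies above telogen for Thrb minus Thra (0.22 against -2.25 on average) and below it for Hr minus Vdr (-1.17 against -0.42).

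Other genes of thyroid hormone handling also differed. Dio2, which converts the prohormone thyroxine to active hormone, had 468, 325 and 278 in anagen and 79.7, 22.2 and 22.8 in telogen, and it rose by a log2 fold change of 3.30 (SE 0.51; limma adjusted p = 0.0026) with groups that did not overlap. Slc7a5, a transporter of amino acids and thyroid hormone, rose by 2.69 (SE 0.62, adjusted p = 0.019). Among 5 genes known to respond to thyroid hormone, 2 were tested and none was called by limma or had an unadjusted p under 0.05, with Klf9 at a log2 fold change of -0.32 (adjusted p = 0.564).

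The glucocorticoid receptor was the other member called. Nr3c1 (ENSMUSG00000024431.14 in the tables, chromosome 18 from 39410545 to 39519421, minus strand) had 3900, 3981 and 4570 in anagen and 7015, 7213 and 6612 in telogen. The spread within each group was small next to the gap between them. The log2 fold change was -0.75 (SE 0.17; limma adjusted p = 0.016). Leaving out any 1 library gave values of -0.82 to -0.70, but the call was lost without anagen replicate 1 (adjusted p = 0.093) or anagen replicate 2 (adjusted p = 0.088).

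Nr3c2 (ENSMUSG00000031618.13, chromosome 8 from 76899442 to 77245012, plus strand), the mineralocorticoid receptor, had 78.8, 44.4 and 39.7 in anagen and 116, 68.8 and 167 in telogen. The groups overlapped, and the log2 fold change of -1.07 (SE 0.48, adjusted p = 0.179) was not called. The ratio of Nr3c2 to Nr3c1 did not separate the stages either (log2 difference -0.33, two-sided exact permutation p = 0.6). Of 17 genes known to respond to glucocorticoid or mineralocorticoid, 17 were tested and 1 was called, with a median log2 fold change of -0.31 over the list and 0.01 over all genes. It was Scnn1b, a subunit of the epithelial sodium channel, at 28.4 ± 2.20 in anagen and 3.53 ± 2.73 in telogen (SD, n = 3; log2 fold change 2.89, adjusted p = 0.032 from limma).

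Steroid receptors are held ready for hormone by Hsp90 and its helpers. Of 14 such chaperone genes tested, 4 rose in anagen, against 7.22% of all genes tested, and none fell, with a median log2 fold change of 0.53. Those that rose were Dnaja1 (1.15, adjusted p = 0.0082), Fkbp4 (1.02, adjusted p = 0.029), Stip1 (0.96, adjusted p = 0.035) and Ptges3 (0.88, adjusted p = 0.035), all from limma. These genes serve many proteins other than steroid receptors. Of 17 receptor coregulators, Tbl1xr1, part of the NCoR corepressor complex, rose by 0.92 (adjusted p = 0.013) and Ppargc1a, a coactivator known for mitochondrial genes, fell by 4.08 on the log2 scale (adjusted p = 0.0033), and the median of the list was 0.14. Ppargc1a had 9.25, 15.9 and 75.9 in anagen and 254, 448 and 560 in telogen, with no overlap.

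Neither the vitamin D receptor nor its partner Rxra nor its corepressor Hr was called, and of these Hr alone had groups that were apart. Vdr (ENSMUSG00000022479.15, chromosome 15 from 97854425 to 97910630, minus strand) had 2730, 2663 and 3002 in anagen and 2436, 2946 and 2518 in telogen. These groups overlapped, and the log2 fold change was 0.09 (95% interval -0.30 to 0.48, adjusted p = 0.779 from limma). Rxra (ENSMUSG00000015846.14, chromosome 2 from 27676440 to 27762957, plus strand) had 1703, 2440 and 2340 against 1834, 1908 and 1866, again overlapping, a log2 fold change of 0.19 (SE 0.20, adjusted p = 0.571).

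Hr (ENSMUSG00000022096.14, chromosome 14 from 70552212 to 70573548, plus strand) had 1391, 1178 and 1160 in anagen and 1727, 2295 and 1906 in telogen. Each anagen library lay below each telogen library. The log2 fold change of -0.66 (SE 0.20) had an adjusted p of 0.052 from limma and was not called, and it was called without telogen replicate 1 (-0.76, adjusted p = 0.030) and with TMM scaling (adjusted p = 0.047). Within libraries, the ratio of Hr to Vdr was 0.510, 0.442 and 0.387 in anagen and 0.709, 0.779 and 0.757 in telogen. The ratios did not overlap (log2 difference -0.75, two-sided exact permutation p = 0.1, the smallest possible). Over the 6 ratio comparisons, the Benjamini-Hochberg adjusted p of this permutation test was 0.3.

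Of the genes that make, break down and carry hormones, 12 of 23 were tested. In anagen 3 rose, against 7.22% of all genes tested, and none fell, with a median log2 fold change of 0.75. Besides Dio2 and Slc7a5 this was Cyp27b1, the enzyme that makes active vitamin D, with 110, 64.9 and 21.5 in anagen, 2.93 in telogen replicate 1 and a listing at 0 in the other telogen libraries (adjusted p = 0.0049 from limma). Of 7 genes known to respond to vitamin D, 2 were tested, and Sostdc1, a secreted inhibitor of BMP and Wnt signals, rose by 1.96 (adjusted p = 0.000105) while Trpv6, a calcium channel, fell by 0.94 on the log2 scale (adjusted p = 0.032). For Sostdc1 the groups were apart, with means of 17371 ± 1276 in anagen and 4496 ± 808 in telogen (SD, n = 3).

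Of 42 other nuclear receptors, 22 were tested. Nr1d1 fell as given above, and Rara, the retinoic acid receptor alpha and likewise a partner of Rxra, rose by 1.51 (SE 0.27; limma adjusted p = 0.0051). Rara had 518, 402 and 495 in anagen and 158, 159 and 174 in telogen, with no overlap. The median over these receptors was -0.19.

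Esr1 was close to the floor of the data. Esr1 (ENSMUSG00000019768.16, chromosome 10 from 4611593 to 5005614, plus strand) had 7.42, 14.6 and a listing at 0 in anagen and 38.0, 1.84 and 16.4 in telogen. The libraries scattered over both ranges, and the log2 fold change of -1.29 had a standard error of 1.22 (adjusted p = 0.533 from limma). It was -0.12 without anagen replicate 3, -0.47 without telogen replicate 1, -2.10 without anagen replicate 2, -2.36 without telogen replicate 2 and -2.26 with a pseudocount of 0.1, so that single libraries decide its size. Of 6 estrogen response genes tested out of 9, Igfbp4 (1.63, adjusted p = 0.0012), which binds insulin-like growth factors, and Ccnd1 (1.58, adjusted p = 0.0031), the G1 cyclin, rose in anagen, and Cited2, a transcriptional coregulator, fell by 0.89 on the log2 scale (adjusted p = 0.023). The median was 1.10, and these genes respond to many signals besides estrogen.

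Prlr (ENSMUSG00000005268.20, chromosome 15 from 10177238 to 10349180, plus strand) had 3048, 7068 and 4120 in anagen and 7079, 6858 and 6922 in telogen. The telogen libraries were close together, whereas in anagen replicate 2 lay at the telogen level and the other libraries below it. The log2 fold change was -0.64 (SE 0.27; limma adjusted p = 0.148), without anagen replicate 1 it was -0.37 (adjusted p = 0.476) and without anagen replicate 2 it was -0.97 (adjusted p = 0.035). Of 11 prolactin pathway genes tested out of 15, Socs3, a feedback inhibitor of cytokine receptors, rose by 1.33 (adjusted p = 0.032), whereas Socs2, another such inhibitor and Stat5 target, fell by 2.45 on the log2 scale (adjusted p = 0.016), and Ptpn6, a phosphatase of cytokine signalling, fell by 1.48 (adjusted p = 0.014). Socs2 had 36.6, 16.1 and 48.4 in anagen and 100, 170 and 298 in telogen, without overlap. The median of the list was -0.23. These genes also serve other cytokines and growth hormone.

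**Figure D3:**
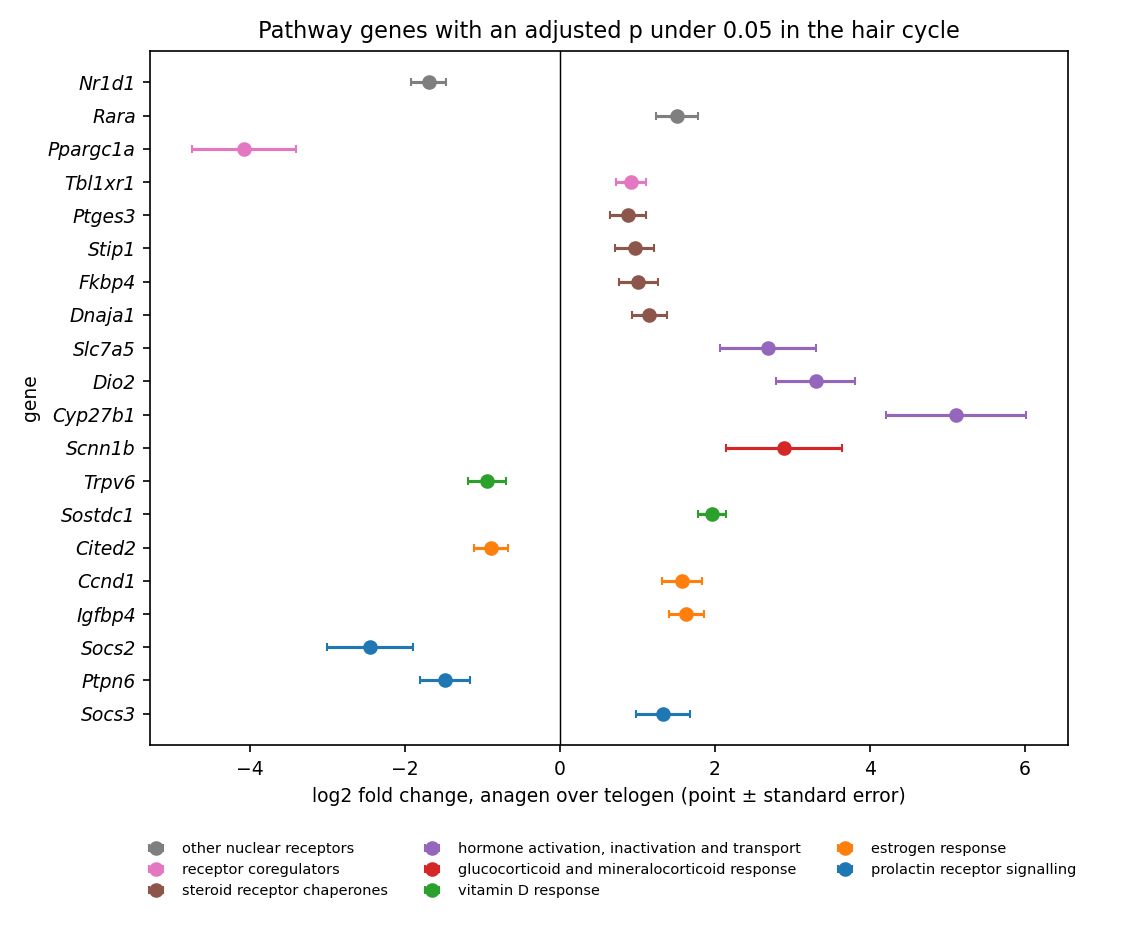
Log2 fold changes (anagen over telogen, horizontal axis) of the genes of the hormone pathways with an adjusted p under 0.05, coloured by the list they were drawn from. Points are the estimates and bars the standard error (3 libraries per group). Dio2, Slc7a5 and Cyp27b1 lie to the right with the chaperones, and Nr1d1, Ppargc1a and Socs2 to the left.

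Markers of other states moved with the hair cycle stage. All 12 proliferation markers rose in anagen, with summed normalized counts of 22876 to 37602 against 2461 to 3738 in telogen. All 8 interfollicular and differentiating epidermis markers were tested, and Flg alone was called, rising in anagen (357 to 597 against 47.1 to 84.2, limma adjusted p = 0.00068). The median log2 fold change of these markers was -0.21, and their sums overlapped (10209 to 18367 in anagen and 12341 to 20342 in telogen). Among 5 of 9 hair matrix and hair germ markers tested, Msx2 fell (104 to 151 against 315 to 469, limma adjusted p = 0.0081). Among 3 of 7 sebocyte markers tested, Awat2 fell (5.47 to 11.5 against 47.5 to 60.7, limma adjusted p = 0.015). Fasn rose (807 to 1140 against 316 to 535, limma adjusted p = 0.014). Of 8 melanocyte markers, 5 were tested and their median log2 fold change was 1.34. Dct rose in anagen (387 to 709 against 61.2 to 134, limma adjusted p = 0.0019) and Mitf fell (685 to 995 against 2801 to 3125), and since Mitf makes up most of it, the sum of the list was lower in anagen (1411 to 1495 against 2909 to 3285). Of 5 endothelial markers, 3 were tested and Tek rose (62.0 to 74.7 against 5.12 to 17.6, limma adjusted p = 0.012), while Pecam1 overlapped (56.7 to 102 against 54.9 to 122) and the sum was 149 to 177 in anagen and 85.3 to 150.1 in telogen. Of 11 dermal markers, 5 were tested and Col1a1 and Dcn rose. Col1a2 went the other way without being called (154 to 229 in anagen against 233 to 600 in telogen). The median log2 fold change of the dermal markers was 0.28, with sums of 1573 to 1771 and 872 to 1758. Of 8 immune markers, 6 were tested and none was called by limma or had an unadjusted p under 0.05, with sums of 142 to 152 and 156 to 442. Adipocyte markers summed to 3.99 to 38.2 and 8.93 to 26.4. Mc5r, Sox10, Cdh5 and Lep, of the sebocyte, melanocyte, endothelial and adipocyte lists, were listed at 0 in all 6 libraries. Other markers of these lists were not, such as Tyrp1 (19.5 to 35.2 in anagen and 3.12 to 9.55 in telogen) and Plin1 (1.04 to 12.5 and 6.67 to 17.7). Of 12 bulge markers, 2 were called. Cd34 fell in anagen (2955 to 4144 against 6433 to 9159, limma adjusted p = 0.0038) and Itga6, which encodes α6-integrin, rose (10531 to 11655 against 4177 to 6856, limma adjusted p = 0.014), and both were used in the sort. The part of these differences in the values of the members was not tested.

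By the measure of root mean square distance between centred log2 profiles over the 6 libraries, the genes most like Thra were Slx1b (0.118) and Ikbkb (0.123), and those most like Nr3c1 were Fchsd2 (0.0547) and Vangl2 (0.0588). They were ranked among all genes tested, on the same libraries that gave the changes above.

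The Eed iKO comparison asks whether loss of PRC2 function alters the receptors in resting follicles. None of the 9 members was called by limma, against 0.0267% of all genes tested, and none was called by DESeq2 or edgeR on the recovered reads, where DESeq2 gave no adjusted p for Esr1. None was called without Eed iKO replicate 3 either. One member, Rxra, had an unadjusted p under 0.05, against 14.7% of genes. None passed the thresholds of the methods, a log2 fold change of more than 1.5 with an unadjusted p under 0.05, which 1.75% of genes passed. The log2 fold change (Eed iKO over control) was below 0 for 7 of 9 members, against 50.1% of genes, and the median was -0.26 over the members and -0.0011 over all genes tested. The groups did not overlap for 3 members, all lower in the libraries labelled Eed iKO, against 20.2% of genes.

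**Figure D4:**
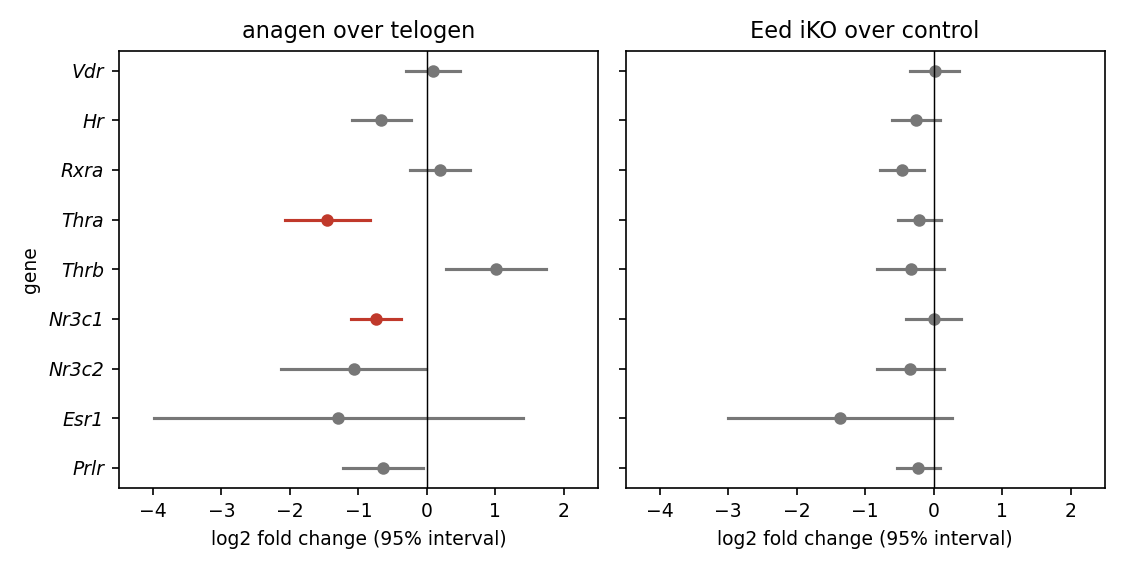
Log2 fold changes of the 9 members with their 95% intervals from limma, anagen over telogen on the left and Eed iKO over control on the right (3 libraries per group). Thra and Nr3c1, in red, had an adjusted p under 0.05. The interval of Vdr spans 0 on both sides, and that of Rxra lies below 0 on the right.

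Rxra showed normalized counts of 18610, 24277 and 23099 in the control libraries and of 16021, 17101 and 14427 in those labelled Eed iKO, in the order of replicates 1, 2 and 3. Every library labelled Eed iKO lay below every control library, with control replicate 1 closest to them. The log2 fold change was -0.47 (95% interval -0.79 to -0.14), with an unadjusted p of 0.0089 and an adjusted p of 0.177 from limma. The adjusted p ran from 0.062 to 0.491 over all alternatives.

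The other partners of this group moved less. Vdr had 34507, 41824 and 35520 in control and 36861, 44686 and 32186 in Eed iKO, overlapping, and its log2 fold change was 0.02 (95% interval -0.34 to 0.37, adjusted p = 0.978 from limma). Hr had 27510, 38472 and 39128 against 28449, 29654 and 28846, where control replicate 1 lay below every Eed iKO library, a log2 fold change of -0.26 (95% interval -0.61 to 0.10, adjusted p = 0.485). The difference of Hr and Vdr within libraries was -0.27 on the log2 scale (two-sided exact permutation p = 0.2).

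Both thyroid hormone receptors had lower means in the libraries labelled Eed iKO. Thra had 7682, 6813 and 7442 in control and 6391, 5505 and 7210 in Eed iKO. These overlapped, and the log2 fold change was -0.21 (SE 0.14; limma adjusted p = 0.530). Thrb had 810, 851 and 796 against 563, 778 and 622, which did not overlap, a log2 fold change of -0.34 (SE 0.22, adjusted p = 0.507). The ratio of Thrb to Thra was 0.106, 0.125 and 0.107 in control and 0.0883, 0.142 and 0.0864 in Eed iKO and was not separated by group (two-sided exact permutation p = 0.6). Nr1d1 had a log2 fold change of -0.60 (adjusted p = 0.169), and Dio2 had 28.4, 6.50 and 88.0 in control and 254, 117 and 75.1 in Eed iKO, overlapping (2.29, adjusted p = 0.259).

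The corticosteroid receptors also showed no call. Nr3c1 had 24536, 21261 and 15632 in control and 20705, 22467 and 17568 in Eed iKO, with a log2 fold change of 0.00 (SE 0.18; limma adjusted p = 0.998). Nr3c2 had 957, 1164 and 1304 against 861, 760 and 1095, a log2 fold change of -0.34 (SE 0.22, adjusted p = 0.500). Both overlapped between groups, and their difference within libraries was -0.34 on the log2 scale (two-sided exact permutation p = 0.5). Since RU-486 binds the glucocorticoid receptor, the 17 response genes were examined as well. None was called by limma or edgeR, 6 had an unadjusted p under 0.05, against 14.7% of all genes tested, and the median of the list was 0.14. DESeq2 on the recovered reads called 4, Cebpd, Fkbp5, Mt1 and Tsc22d3, against 673 of all 15008 genes tested. The gene with the smallest p in limma was Tsc22d3, a glucocorticoid-induced leucine zipper protein, at 2007, 1765 and 1896 in control and 4084, 3765 and 2708 in Eed iKO, without overlap (0.88, adjusted p = 0.099). The libraries were made from mice 20 days after the first application.

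Esr1 had 50.6, 46.6 and 27.2 in control and 25.8, 7.97 and 15.8 in Eed iKO. Although the groups did not overlap, the values were low and scattered, and the log2 fold change of -1.37 had a standard error of 0.74 (adjusted p = 0.416 from limma). Prlr had 24910, 29089 and 31136 in control and 23086, 22895 and 26753 in Eed iKO. These overlapped as well, and the log2 fold change was -0.22 (SE 0.14, adjusted p = 0.489).

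No gene of the other pathway lists was called by limma or edgeR in this comparison. Over all genes tested, 14.7% had an unadjusted p under 0.05 in limma. An unadjusted p under 0.05 in limma was found for 3 of 27 other nuclear receptors, 2 of 17 coregulators, 6 of 14 chaperones, 1 of 14 genes of hormone metabolism and transport (Dio2, above), 1 of 4 vitamin D, 1 of 4 thyroid hormone and 2 of 6 estrogen response genes and 1 of 14 prolactin pathway genes. DESeq2 called Nr6a1, Ppargc1a, Med24 and the chaperone genes Cdc37, Fkbp5, Hsp90aa1 and St13, and none of the other lists. Over all 15008 genes tested it called 673, and Fkbp5 is also among the glucocorticoid response genes given above. The gene with the smallest p of each was Nr6a1 among 27 other nuclear receptors (log2 fold change -0.79, adjusted p = 0.163), Ppargc1a among 17 coregulators (-1.18, adjusted p = 0.092), Cdc37 among 14 chaperones (0.53, adjusted p = 0.141), S100g among 4 vitamin D response genes (2.52, adjusted p = 0.317), Bcl3 among 4 thyroid hormone response genes (1.91, adjusted p = 0.277), Ccnd1 among 6 estrogen response genes (0.51, adjusted p = 0.196) and Ptpn6 among 14 prolactin pathway genes (0.61, adjusted p = 0.334), all from limma. The medians were -0.22 for other nuclear receptors, -0.14 for coregulators, 0.37 for chaperones, 0.06 for hormone metabolism and transport, -0.04 for vitamin D, -0.28 for thyroid hormone and 0.49 for estrogen response genes, and 0.04 for the prolactin pathway.

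Gene length moved with this comparison. Over the genes tested, the Spearman correlation of the log2 fold change with exon length was -0.21, across genes that share the same libraries, so longer genes tended to lower values, and it was -0.05 in the hair cycle. With the length trend taken out of each library, an alternative chosen after seeing the data, the members had log2 fold changes of -0.43 (Rxra), -0.10 (Prlr) and 0.08 (Nr3c1), and none was called. Summed proliferation markers were 8171 to 18463 in Eed iKO and 7252 to 9107 in control, with 0 of 12 called by limma or edgeR, 1 (Cdk1) by DESeq2 and 3 at an unadjusted p under 0.05 in limma. Of 12 bulge markers, 5 had an unadjusted p under 0.05, against 14.7% of all genes tested, and DESeq2 called Krt14 (118195 to 141718 in Eed iKO and 62887 to 87613 in control). The bulge markers went both ways, with a median log2 fold change of 0.16. Itga6, Itgb1, Krt15 and Lhx2 also lay higher in Eed iKO without overlap, whereas Nfatc1, Tcf7l1 and Lgr5 lay lower without overlap. Of 7 hair matrix and hair germ markers tested, 1 had an unadjusted p under 0.05 and was called by DESeq2, Dlx3 (1586 to 2356 in Eed iKO and 3452 to 4965 in control). Of 7 immune markers tested, 3 had an unadjusted p under 0.05, with sums of 395 to 816 in Eed iKO and 248 to 465 in control. Limma and edgeR called none of these lists, and their part in the values of the members was not tested.

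**Figure D5:**
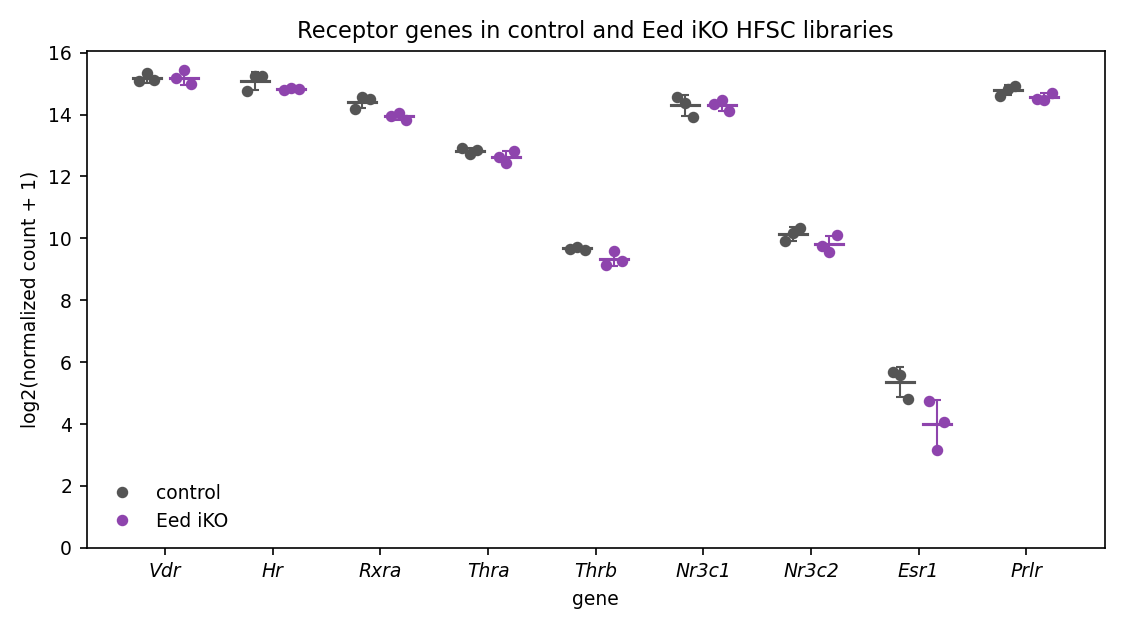
Normalized counts of the 9 members in the control and Eed iKO libraries, as log2(normalized count + 1) on the vertical axis. Points are libraries (3 per group), bars the mean and error bars the SD, with control in grey and Eed iKO in purple. The groups are apart for Rxra, Thrb and Esr1, each lower in Eed iKO, and none of the 9 members had an adjusted p under 0.05.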

How the data were processed

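HFSC RNA was sequenced in 12 libraries, each assigned to its group and replicate by its label. Per the labels and the methods, replicates were biological, libraries were made with a kit for low RNA input, and the authors quantified reads on Gencode mouse transcripts with kallisto (0.42.5) and compared groups with DESeq2. Each deposited signal is a count per gene divided by the DESeq2 size factor of its library. The deposited columns of the authors' own fold changes and p-values were not used.

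The genes described and the lists of related genes were chosen with earlier results of these data known. Genes that DESeq2 alone called were named after their values were seen. The genes named beside the members are those of each list with an adjusted p under 0.05 or, where none passed, the one with the smallest p. If more than 4 passed, the 2 highest and 2 lowest fold changes were named. For each called member, the 2 genes with the nearest profile are also named.

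limma (3.58.1) was fitted to log2(value + 1) with an intensity trend, 3 libraries against 3 in each table, for genes passing filterByExpr of edgeR (4.0.16, count minimum 10). The design allowed for raw counts, but the tables hold normalized values. In the Eed iKO table, 100% of values were whole multiples of 1 constant per library within 0.1 read, so DESeq2 (1.42.0) and edgeR were run on the recovered reads as alternatives. In the hair cycle table, only 19% to 25.4% of non-zero values lay within 0.1 of a whole multiple. Whole reads were therefore not recovered there, and no count test was run. Scripts were tested on simulated data. Coordinates and exon lengths are from GENCODE vM21 (GRCm38), joined by gene identifier, and promoters from RefSeq. Other alternatives were a pseudocount of 0.1, no filter, TMM scaling, no intensity trend, a replicate block, leaving out 1 library at a time, and the length trend removed.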

Additional observations from a re-analysis of the deposited data

How the results depend on the processing

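Over all alternatives, 218 fold changes of members kept their direction and side of the threshold, 5 lost and 3 gained a call, and 8 turned sign. Without an intensity trend, 0 members were called in the hair cycle, where the adjusted p was 0.050 for Thra and 0.095 for Nr3c1, and with each library left out in turn 0 to 3 were called, with 0 when anagen replicate 1 was left out. Sign changes were limited to values near 0. In the Eed iKO comparison, the log2 fold change of Vdr was -0.037 without control replicate 1, -0.016 without control replicate 3 and -0.11 without Eed iKO replicate 2, and that of Nr3c1 was -0.019 with DESeq2, -0.017 with edgeR, -0.18 without control replicate 3, -0.019 without Eed iKO replicate 1 and -0.08 without Eed iKO replicate 2. Left-out libraries gave ranges of -0.11 to 0.13 for Vdr and -0.18 to 0.14 for Nr3c1. The Nr3c2 to Nr3c1 difference in the hair cycle ran from -0.69 to 0.0097, the latter without telogen replicate 3. The cause was not tested.

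Counts over all genes moved more. In the Eed iKO comparison, 4 genes were called by limma, 2 without an intensity trend, 424 with the replicate block and 673 with DESeq2, and 1 to 203 with each library left out, 203 without Eed iKO replicate 3. The thresholds of the methods gave 263 genes, 425 without a filter and 197 to 413 with each library left out. In the hair cycle, 1556 genes were called, 842 without an intensity trend and 597 to 1529 with each library left out (597, 712 and 854 without anagen replicates 1, 2 and 3).

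In the hair cycle table no pairing of the libraries by replicate number was seen in the values. Deviations of same-numbered libraries correlated by -0.035, -0.071 and -0.029, and 0 of 6 libraries correlated best with their own number. In the Eed iKO table these correlations were positive but low (0.039, 0.068 and 0.193), and 4 of 6 libraries correlated best with their own number. The replicate block raised the calls over all genes there from 4 to 424. Whether the numbers pair the libraries by design is not known for either table. With the replicate block, 0 and 2 members were called, as without it, with adjusted p = 0.067 for Rxra in the Eed iKO comparison and 0.014 for Thra and 0.049 for Nr3c1 in the hair cycle. The depth behind the values of the hair cycle table is not known, so no counting error can be given for low values such as those of Esr1.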
